A study of Mus musculus with 4 samples.

Results

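The transcripts of 10 T cell costimulatory and checkpoint receptors (Cd28, Icos, Tnfrsf4, Tnfrsf18, Tnfrsf9, Ctla4, Pdcd1, Tigit, Lag3 and Havcr2) were described in 6 lymphoid cell types of the mouse hindpaw. They were chosen by symbol, 10 of the 32285 genes measured, and all 10 were present in each of the 4 libraries. Leukocytes bearing the pan-leukocyte protein CD45 were sorted from hindpaws of male mice and sequenced as single cells in droplets, where a unique molecular identifier (UMI) lets each captured transcript be counted once. DB mice were Lepr db/db on the C57BLKS/J background, homozygous for the db allele of the leptin receptor gene in every cell. They become obese and diabetic, and WT mice were their Lepr WT/WT littermates. Each genotype at each age was 1 library made from the pooled CD45+ cells of 2 to 3 mice, and no test between conditions was made. Lists of 4 values give WT and DB at 12 weeks and then WT and DB at 21 weeks. Cell Ranger 5.0.0 made the 12-week tables and version 6.0.0 the 21-week tables, per the file headers, so software version and age cannot be told apart.

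A T cell is activated by its antigen receptor together with a second signal. CD28 and ICOS give such signals when they bind CD80 or CD86 and ICOSL, and the tumour necrosis factor receptors OX40 (Tnfrsf4), GITR (Tnfrsf18) and 4-1BB (Tnfrsf9) sustain the response. CTLA-4 competes with CD28 for its ligands, and PD-1 (Pdcd1), TIGIT, LAG-3 and TIM-3 (Havcr2) restrain activated cells. Regulatory T cells, which depend on the transcription factor Foxp3, are known for high CTLA-4, OX40 and GITR. Skin also holds γδ T cells of the dermis, dendritic epidermal T cells (DETC), group 2 innate lymphoid cells (ILC2) and natural killer (NK) cells, which carry some of the same receptors.

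Several of these genes are neighbours in the genome (GRCm38, GENCODE M21). Cd28 (chr1:60716800-60773359), Ctla4 (chr1:60887000-60915832) and Icos (chr1:60977927-61000320) follow each other on the plus strand of chromosome 1, with 113640 and 62094 bases between them. Tnfrsf4 (chr4:156013843-156016612) and Tnfrsf18 (chr4:156026164-156028895) lie 9551 bases apart on the plus strand of chromosome 4, which also holds Tnfrsf9 (chr4:150914562-150946102). The other 4 genes are Pdcd1 (chr1:94038305-94052553, minus strand), Lag3 (chr6:124904361-124911705, minus strand), Havcr2 (chr11:46454935-46481255, plus strand) and Tigit (chr16:43648867-43664146, minus strand).

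RefSeq promoters (GRCm38.p6) matched 7 of the 10 genes, namely Ctla4, Pdcd1, Tigit, Havcr2, Tnfrsf4, Tnfrsf18 and Tnfrsf9, the last with 2 start sites. The 250 bases before the start site are shown for Ctla4 (chr1:60908775-60909024, plus strand) and Tnfrsf4 (chr4:156013445-156013694, plus strand), whose transcripts were both highest in Foxp3+ T cells, and for Pdcd1 (chr1:94052554-94052803, minus strand), whose transcript was highest in γδ T cells. They are written 5′ to 3′, with capitals for each match of GGAAA on either strand, the core motif of the activation-induced factor NFAT.
Ctla4: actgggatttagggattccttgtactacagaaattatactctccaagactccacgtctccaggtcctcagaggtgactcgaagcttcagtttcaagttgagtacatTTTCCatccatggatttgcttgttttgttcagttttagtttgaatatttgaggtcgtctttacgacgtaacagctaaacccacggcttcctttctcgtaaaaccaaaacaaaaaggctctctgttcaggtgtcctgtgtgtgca
Tnfrsf4: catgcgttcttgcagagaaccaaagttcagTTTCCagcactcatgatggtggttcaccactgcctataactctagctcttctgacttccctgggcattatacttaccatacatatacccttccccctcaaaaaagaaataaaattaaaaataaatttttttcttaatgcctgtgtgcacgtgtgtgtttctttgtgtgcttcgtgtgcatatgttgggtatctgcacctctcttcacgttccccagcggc
Pdcd1: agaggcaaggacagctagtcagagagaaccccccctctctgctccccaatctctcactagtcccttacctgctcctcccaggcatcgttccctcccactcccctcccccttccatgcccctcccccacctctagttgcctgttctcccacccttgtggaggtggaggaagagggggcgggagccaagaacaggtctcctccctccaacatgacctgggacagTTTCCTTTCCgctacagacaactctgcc
GGAAA had 1 match each in the Ctla4 and Tnfrsf4 windows and 2 adjoining matches in the Pdcd1 window, and 55.6% of all 32851 promoters of this length held at least 1. Motifs for AP-1 (TGANTCA, in 6.75% of promoters), NF-kB (GGG and CC with 5 bases between them, in 45.8%) and forkhead factors (TGTTTAC, in 3.17%) were searched on both strands and had no match in these 3 windows. Of the other windows, Tigit, Tnfrsf18 and the first start of Tnfrsf9 held 2 GGAAA matches each and none of the other motifs. Havcr2 held 1 AP-1 match and no GGAAA, and the second start of Tnfrsf9 held 3 GGAAA, 1 AP-1 and 2 NF-kB matches. A match describes the letters only. RefSeq and GENCODE do not place the starts of Ctla4 and Tnfrsf4 at the same base, and the RefSeq start was used. The Ctla4 window ended at base 60909024, well inside the GENCODE span of the gene, which starts at 60887000. The Tnfrsf4 window ended at 156013694, shortly before the GENCODE start at 156013843. Distances between genes above are from GENCODE.

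Cell types were gated by marker transcripts, none of which was among the 10 receptors, among barcodes that passed limits of 200 genes and of 10% UMIs from mitochondrial genes. Foxp3+ T cells (55, 102, 123 and 219 barcodes) and other αβ T cells (184, 350, 526 and 553) had CD3 transcripts and more Trac than Trdc, and the former had at least 1 Foxp3 UMI. A cell whose Foxp3 transcripts were not captured would fall among the other αβ T cells, and the part of such cells was not tested. γδ T cells (379, 488, 821 and 1215) and DETC (112, 477, 48 and 163) had more Trdc than Trac and were separated by the DETC markers Tcrg-V5, Fermt2, Gem, Cd7 and Trat1. ILC2 (309, 707, 501 and 1562) and NK cells (106, 82, 124 and 88) had at most 1 CD3 UMI. Among markers that the gates did not use, Ikzf2 averaged 1738 CPM (UMIs of a gene scaled to the same total in every sum) in Foxp3+ T cells and 231 in other αβ T cells, and Il17a averaged 327 CPM in γδ T cells and 8.86 in DETC. Of 14 such markers listed for γδ T cells, 11 averaged higher in γδ T cells than in DETC and 3 lower, namely Trdv4 (499 and 719.5 CPM), Tcrg-C1 (381.5 and 615 CPM) and Tcrg-C4 (64.6 and 79.5 CPM). Ncr1, which the NK gate used, averaged 251 CPM in NK cells and at most 2.97 in the other 5 types, while Klra8, listed as an NK marker, was at 0 in all 6 types. Median UMIs per barcode ranged from 4471 to 7327 over the 24 type-by-library sums, and 1.60% to 4.12% of the UMIs in a sum were estimated as background from the macrophage transcripts C1qa, C1qb and C1qc. The gates had left out lymphoid barcodes with 10 or more UMIs of these same genes, which limits how high this estimate can be. Summed macrophage markers reached 105 to 344 CPM in the lymphoid sums against 13350 to 25320 in macrophages, and B cell markers 16.8 to 392 CPM against 10480 to 29360 in B cells. Markers of type 2 conventional dendritic cells reached 246 to 563 CPM in Foxp3+ T cells and 158 to 507 in NK cells, and 97.2 to 449.5 in the other types. Mast cell markers were at 303 to 373 CPM in ILC2 and at most 170.5 in the other types. The part of these markers in the receptor levels was not tested. Keratinocyte markers summed to 690, 204, 218 and 15.3 CPM in ILC2 and at most 124 in the other types, that value and 153 CPM of fibroblast markers both in Foxp3+ T cells of 21-week-DB. The libraries shared 6 to 154 barcodes per pair.

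**Figure D1:**
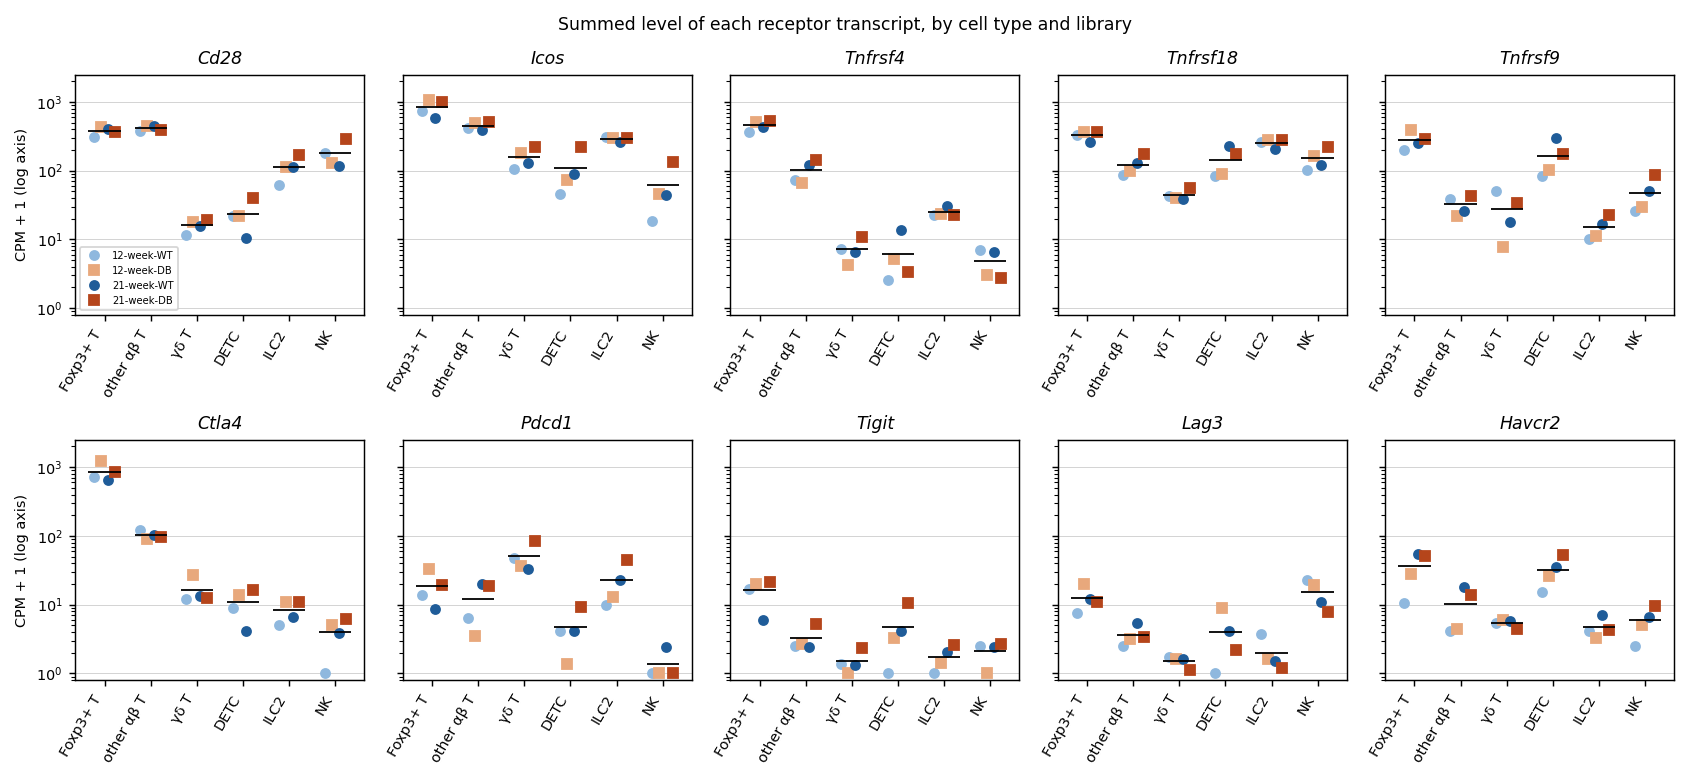
Summed level of each receptor transcript (CPM + 1, log axis) in 6 cell types, with 1 point per library and a line at the mean of the 4 libraries. Ctla4 and Tnfrsf4 stood highest in Foxp3+ T cells in every library, Pdcd1 in γδ T cells, and Lag3 and Tigit were low throughout.

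Of the costimulatory receptors of the CD28 family, Cd28 was a transcript of αβ T cells, with lower levels in NK cells and ILC2. In other αβ T cells it was at 375, 449, 450 and 385 CPM, and in Foxp3+ T cells at 307, 430, 396 and 359 CPM. These 2 types overlapped. In NK cells it was at 182, 129, 118 and 289 CPM and in ILC2 at 60.6, 111, 112 and 170 CPM. DETC (9.36 to 38.4 CPM) and γδ T cells (10.7 to 17.8 CPM) were lowest, and macrophages held 4.83 to 11.7 CPM. Each step in the order of the means was past the threshold (edgeR adjusted p under 0.05) except that between other αβ T and Foxp3+ T cells (adjusted p = 0.54) and that between DETC and γδ T cells (adjusted p = 0.11).

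Icos was present in all 6 types. It was at 728, 1070, 581 and 1011 CPM in Foxp3+ T cells and at 410, 496, 389 and 505 CPM in other αβ T cells, without overlap. ILC2 held a nearly constant 307, 296, 258 and 299 CPM. γδ T cells followed with 104, 181, 127 and 216 CPM, DETC with 44.3, 72.9, 87.4 and 223 CPM, and NK cells with 17.8, 44.9, 43.9 and 134 CPM. DETC and NK cells each had their highest value in 21-week-DB. Only the step from ILC2 to γδ T cells was past the threshold among neighbours in this order (log2 fold change 0.98, adjusted p = 0.0091).

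The 3 tumour necrosis factor receptors shared a high level in Foxp3+ T cells and differed elsewhere. Tnfrsf4 was at 366, 517, 433 and 531 CPM in Foxp3+ T cells and at 73.2, 64.1, 120 and 141 CPM in other αβ T cells. ILC2 held 21.6 to 29.9 CPM, and γδ T cells, DETC and NK cells held 1.58 to 12.5 CPM. Each of the first 3 steps in this order was past the threshold, with adjusted p of 3.6e-08, 3.6e-08 and 2.6e-06. Tnfrsf18 was spread more evenly over the types. It was at 327, 360, 258 and 369 CPM in Foxp3+ T cells and at 256, 278, 208 and 275 CPM in ILC2. Foxp3+ T cells were thus higher than ILC2 in every library. The step missed the threshold in the edgeR fit of all 6 types (log2 fold change 0.24, adjusted p = 0.45). The spread in that fit came from all 6 types and not from this pair alone. NK cells (102 to 222 CPM), DETC (83.9 to 225 CPM) and other αβ T cells (84.8 to 173 CPM) overlapped, and γδ T cells (37.1 to 54.6 CPM) were below them in every library.

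Tnfrsf9 was high in Foxp3+ T cells, at 197, 386, 250 and 289 CPM, and in DETC, at 82.3, 101, 297 and 174 CPM. The order of these types was the reverse in 21-week-WT, where the DETC value came from 48 barcodes, and the difference missed the threshold (adjusted p = 0.12). NK cells held 25.2 to 84.4 CPM, other αβ T cells 21.2 to 41.8 CPM, γδ T cells 6.87 to 49.9 CPM and ILC2 8.98 to 21.4 CPM.

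Ctla4 was highest in Foxp3+ T cells in each library, with a wide step to the next type. Foxp3+ T cells held 728, 1227, 649 and 838 CPM and other αβ T cells 120, 90.4, 103 and 94.9 CPM. γδ T cells were at 11.1 to 26.3 CPM, DETC at 3.12 to 15.6 CPM, ILC2 at 4.04 to 10.0 CPM and NK cells at 0 to 5.17 CPM, and no step between neighbours among these 4 types passed the threshold. Between types farther apart, γδ T cells were above ILC2 (adjusted p = 0.020) and NK cells (adjusted p = 0.0073), and DETC above NK cells (adjusted p = 0.046). In macrophages the level was 0.62 to 1.36 CPM.

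Pdcd1 followed another order. It was highest in γδ T cells, at 46.9, 35.6, 32.1 and 82.5 CPM (127, 119, 210 and 601 UMIs). ILC2 came next with 8.98, 11.9, 21.7 and 43.9 CPM, and the step between these types was past the threshold (log2 fold change 1.15, adjusted p = 0.012). Foxp3+ T cells held 12.9, 32.2, 7.51 and 18.1 CPM and other αβ T cells 5.40, 2.55, 18.7 and 17.7 CPM, without a difference beyond the spread. DETC held 0.38 to 8.39 CPM, and NK cells had 1 UMI in all 4 libraries together.

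The remaining 3 inhibitory receptors were sparse. Tigit was highest in Foxp3+ T cells, at 16.2, 18.9, 5.01 and 20.5 CPM from only 44 of its 123 UMIs in the 6 types, and was at 0 to 9.59 CPM elsewhere. Lag3 had 145 UMIs in all and was highest in NK cells (22.2, 18.4, 9.91 and 6.89 CPM) and Foxp3+ T cells (6.47, 18.9, 11.3 and 9.85 CPM), which did not differ beyond their spread. Mast cells held 8.24 to 35.6 CPM of Lag3 and dendritic cells 2.50 to 15.1 CPM. Havcr2 was at 9.71, 26.5, 53.8 and 50.9 CPM in Foxp3+ T cells and 14.3, 25.3, 34.3 and 51.5 CPM in DETC, with an adjusted p of 0.99 between them. TIM-3 is also a receptor of myeloid cells, and it was at 38.9 to 70.7 CPM in macrophages and 50.2 to 89.7 CPM in dendritic cells, ranges that overlap those of both types.

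Shares of positive barcodes gave the same picture at a fixed depth. With each barcode thinned to 2000 UMIs, Ctla4 was detected in 51.9%, 69.7%, 59.5% and 67.3% of Foxp3+ T barcodes and in 11.2% to 14.4% of other αβ T barcodes, against 0.20% to 0.40% of macrophages. The unthinned shares were 67.3% (95% exact interval 53.3 to 79.3), 81.4%, 78.0% and 80.4% in Foxp3+ T cells at median depths of 4471 to 5033 UMIs, and 0.59% to 1.44% in macrophages at 9432 to 11070 UMIs. Icos was detected in 45.4% to 75.7% of thinned Foxp3+ T barcodes and 29.6% to 32.6% of thinned ILC2, against 0.81% to 1.47% of macrophages. Pdcd1 was detected in 6.90%, 7.77%, 5.13% and 13.4% of thinned γδ T barcodes, against at most 0.08% of macrophages. Havcr2 in γδ T cells, ILC2 and NK cells (0 to 2.30% of thinned barcodes) stayed below its share in macrophages (7.66% to 12.1%), which express it. Intervals cover counting error only.

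Several receptors were found together in single Foxp3+ T barcodes. At 2000 UMIs, 3 or more of the 10 transcripts were detected in 66.7%, 65.7%, 50.4% and 70.6% of Foxp3+ T barcodes. The share was 14.4% to 22.1% in other αβ T cells, 1.29% to 11.98% in ILC2, 0 to 11.5% in NK cells, 0.90% to 5.77% in DETC and 0.37% to 3.57% in γδ T cells, and at most 0.074% in macrophages. Unthinned, Ctla4, Icos and Tnfrsf4 were all detected in 43.6%, 57.8%, 49.6% and 60.3% of Foxp3+ T barcodes and in 5.71% to 11.9% of other αβ T barcodes. Up to 9 of the 10 were counted in 1 Foxp3+ T barcode.

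Foxp3+ T cells were compared with other αβ T cells over the sums of the 4 libraries with edgeR's quasi-likelihood test and the library as a block. Of the 10 receptors, 7 were higher and none lower, while 4.79% of the 10664 genes tested were higher and 5.27% lower (511 and 562 genes, or 813 and 411 with total UMIs as the scaling). The receptors were chosen with earlier results of these data known. The paper names Ctla4, Cd28 and Icos as markers of its heterogeneous T cells in the same data. The count is thus a description and not an independent test of the list. Tnfrsf9 (log2 fold change 3.14 ± 0.45 SE, adjusted p = 1.6e-04) and Ctla4 (2.92 ± 0.19, adjusted p = 5.3e-10) had the largest differences. Tigit (2.50 ± 0.51), Tnfrsf4 (2.12 ± 0.18), Lag3 (1.94 ± 0.52), Havcr2 (1.85 ± 0.30) and Tnfrsf18 (1.32 ± 0.20) were also higher, with adjusted p of at most 0.012. Icos (0.78 ± 0.26, adjusted p = 0.073), Pdcd1 (0.24 ± 0.58, adjusted p = 0.89) and Cd28 (-0.28 ± 0.22, adjusted p = 0.54) were not past the threshold. The call of Lag3 rested on 33 UMIs in Foxp3+ T cells and was lost without 12-week-DB (adjusted p = 0.13) or 21-week-DB (adjusted p = 0.061), with at most 5% mitochondrial UMIs (adjusted p = 0.20) and with the gate by Foxp3, or Ikzf2 with Il2ra (adjusted p = 0.36). Icos passed without 21-week-DB (adjusted p = 0.0032), with DESeq2 (adjusted p = 0.046), with no filter on low genes (adjusted p = 8.5e-08) and with only these 2 types fitted (adjusted p = 4.0e-08), where Cd28 was lower (-0.26, adjusted p = 0.045). The median of the 10 log2 fold changes was 1.90. The labels do not say that the libraries came from separate cages or days. With the library as a block, these p-values measure how differences between types vary over 4 pooled samples of different genotype and age. The fit held all 6 types, so the other types entered this spread as well.

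**Figure D2:**
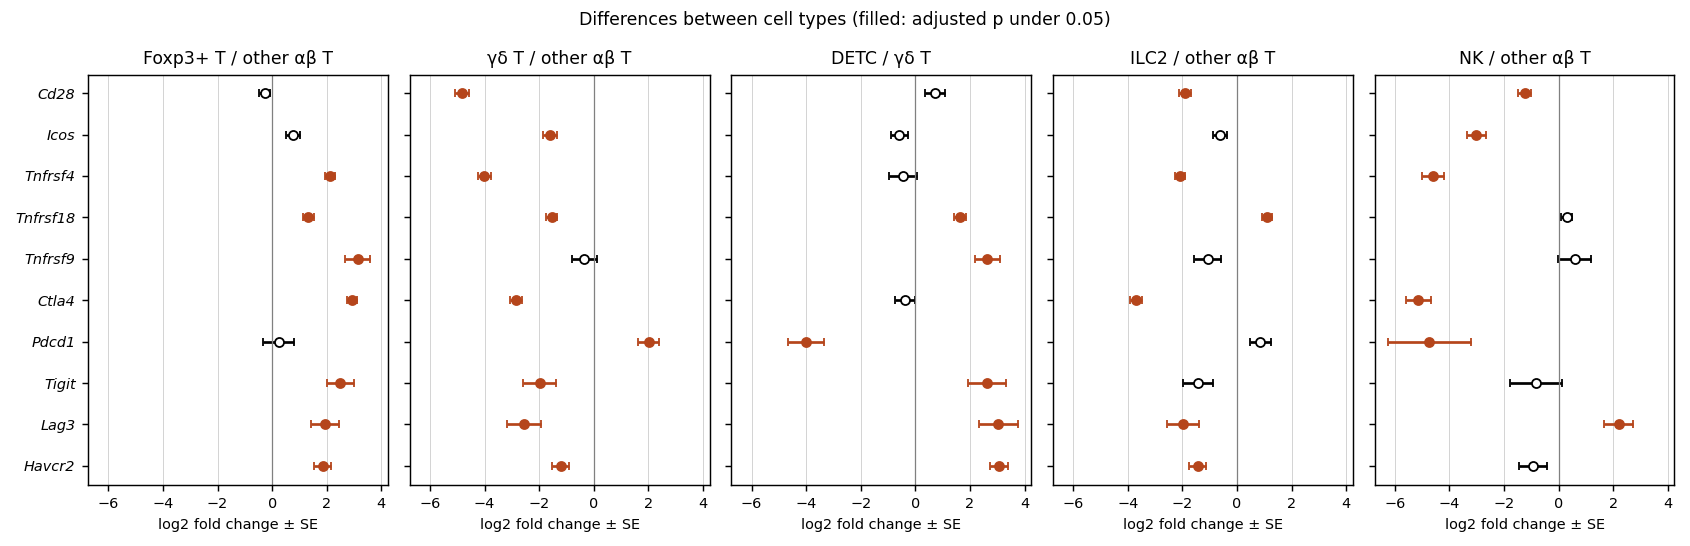
Log2 fold change ± SE of the 10 receptor transcripts in 5 comparisons of cell types over 4 libraries, with filled points where the adjusted p was under 0.05. In Foxp3+ T cells 7 of 10 lay to the right, in γδ T cells 8 of 10 to the left with Pdcd1 to the right, and in DETC Havcr2, Lag3, Tigit, Tnfrsf18 and Tnfrsf9 were above γδ T cells.

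In γδ T cells, 8 of the receptors were lower than in other αβ T cells and 1 was higher, against 8.23% and 7.74% of the genes tested. Cd28 had the largest difference (log2 fold change -4.84 ± 0.25 SE, adjusted p = 7.1e-11), followed by Tnfrsf4 (-4.01 ± 0.23) and Ctla4 (-2.85 ± 0.21). Lag3 (-2.54 ± 0.63), Tigit (-1.98 ± 0.59), Icos (-1.60 ± 0.26), Tnfrsf18 (-1.54 ± 0.20) and Havcr2 (-1.21 ± 0.31) were lower by less. Pdcd1 was higher (2.01 ± 0.37, adjusted p = 7.5e-04), in 4 of 4 libraries, but missed the threshold with stricter gates (1.37, adjusted p = 0.11). Tnfrsf9 was not past the threshold (-0.34 ± 0.47, adjusted p = 0.74), and with stricter gates it was lower (-1.47, adjusted p = 0.031). The call of Havcr2 was lost without 21-week-WT (adjusted p = 0.24) or 21-week-DB (adjusted p = 0.16), that of Tigit without 12-week-DB (adjusted p = 0.078) or 21-week-WT (adjusted p = 0.065), and that of Lag3 without 21-week-WT (adjusted p = 0.076). Thinning (adjusted p = 0.16), DESeq2 (adjusted p = 0.089) and fitting only these 2 types (adjusted p = 0.051) also ended the Havcr2 call, and at most 5% mitochondrial UMIs that of Tigit (adjusted p = 0.079).

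DETC differed from γδ T cells at 26.4% of the genes tested in the higher and 26.8% in the lower direction. Havcr2 (log2 fold change 3.06 ± 0.32 SE, adjusted p = 9.6e-10), Lag3 (3.03 ± 0.71), Tigit (2.64 ± 0.70), Tnfrsf9 (2.63 ± 0.46) and Tnfrsf18 (1.64 ± 0.22) were higher in DETC. Pdcd1 was lower (-4.00 ± 0.65, adjusted p = 5.1e-05), with 11 UMIs in all DETC against 1057 in γδ T cells. Lag3 had 23 UMIs in DETC, 21 of them in 12-week-DB, and without that library its log2 fold change was 1.31 (adjusted p = 0.51). Icos, Ctla4, Tnfrsf4 and Cd28 were not past the threshold, but each of these except Tnfrsf4 passed in some alternative. Icos was lower without 21-week-DB (-1.01, adjusted p = 3.1e-04), when thinned (-1.08, adjusted p = 0.029), with no filter on low genes (adjusted p = 3.9e-06) and with only these 2 types fitted (adjusted p = 0.020). Ctla4 moved from -0.39 to -1.53 when the highest Scrublet scores were removed (adjusted p = 0.014). Cd28 was higher with DESeq2 (0.73, adjusted p = 0.033) and with no filter (0.64, adjusted p = 0.0074).

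ILC2 held more Tnfrsf18 than other αβ T cells (log2 fold change 1.08 ± 0.18 SE, adjusted p = 1.5e-04) and less of 5 receptors, against 8.35% higher and 8.25% lower of the genes tested. The 5 were Ctla4 (-3.69 ± 0.23), Tnfrsf4 (-2.08 ± 0.20), Lag3 (-1.98 ± 0.59), Cd28 (-1.91 ± 0.21) and Havcr2 (-1.44 ± 0.32). Lag3 lost its call without 12-week-DB (adjusted p = 0.066), 21-week-WT (adjusted p = 0.23) or 21-week-DB (adjusted p = 0.15), and Havcr2 without 21-week-DB (adjusted p = 0.052) or when thinned (adjusted p = 0.092). At most 5% mitochondrial UMIs also ended the Lag3 call (adjusted p = 0.093). Icos, which ILC2 are known to use for survival and cytokine release, was at -0.62 ± 0.25 (adjusted p = 0.11) and Pdcd1 at 0.85 ± 0.39 (adjusted p = 0.16), which passed when barcodes were thinned (adjusted p = 0.0071). Tigit (-1.43 ± 0.56) and Tnfrsf9 (-1.07 ± 0.49) were not past the threshold. Icos was lower without 21-week-DB (adjusted p = 0.011), and Tigit when the highest Scrublet scores were removed (-1.70, adjusted p = 0.030). With only these 2 types fitted, Icos (adjusted p = 6.4e-06) and Tnfrsf9 (adjusted p = 3.8e-04) were lower and Pdcd1 higher (adjusted p = 0.0098), and all 3 also passed with no filter on low genes.

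NK cells held more Lag3 than other αβ T cells (log2 fold change 2.20 ± 0.52 SE, adjusted p = 0.0021, from 35 and 32 UMIs, lost at 0.067 with at most 5% mitochondrial UMIs) and less of 5 receptors, against 10.8% higher and 10.1% lower of the genes tested. Ctla4 (-5.13 ± 0.45), Tnfrsf4 (-4.60 ± 0.41), Icos (-3.01 ± 0.34) and Cd28 (-1.24 ± 0.23) were lower with adjusted p of at most 5.4e-04. Pdcd1 was lower with 1 UMI in NK cells against 146, a ratio of 32.6-fold with a 95% counting interval from 5.77 to 1298, and its call (adjusted p = 0.033) was lost without 12-week-WT (adjusted p = 0.098), 21-week-WT (adjusted p = 0.13) or 21-week-DB (adjusted p = 0.16), with stricter gates (adjusted p = 0.11) and without the highest Scrublet scores (adjusted p = 0.050). Tnfrsf18 (0.29 ± 0.21), Tnfrsf9 (0.58 ± 0.59), Havcr2 (-0.95 ± 0.51) and Tigit (-0.83 ± 0.94) were not past the threshold. Most Lag3 UMIs of the NK gate lay in barcodes without Eomes, a factor of conventional NK cells. Lag3 was at 35.8, 22.45, 18.0 and 8.19 CPM there (13, 8, 6 and 4 UMIs). With Eomes it was at 6.42, 7.48, 2.68 and 0 CPM (2, 1, 1 and 0 UMIs). This split was chosen after the data were seen and was not tested.

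Over all 15 pairs of types, 106 of the 150 combinations of receptor and pair were past the threshold, against 29.6% of the gene and pair combinations tested. The pairs share sums, so these calls are not independent.

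Within other αβ T cells, barcodes with Cd4 and no Cd8a or Cd8b1 UMI were compared with those of the reverse pattern (55, 108, 256 and 166 against 30, 57, 63 and 80 barcodes). Of the 6 receptors with enough UMIs to be tested, 5 were higher in Cd4+ barcodes and none lower, against 4.45% and 6.34% of 5930 genes (264 and 376 genes, or 578 and 249 with total UMIs as the scaling). Tnfrsf4 was at 137, 125, 170 and 255 CPM in Cd4+ and 4.32, 7.34, 15.4 and 49.7 CPM in Cd8+ barcodes (log2 fold change 2.87 ± 0.25 SE, adjusted p = 9.8e-09). Ctla4 was at 240, 179, 154 and 127 CPM and 4.32, 17.1, 21.9 and 46.5 CPM (2.46 ± 0.44, adjusted p = 0.016), and its call was lost without 21-week-WT (adjusted p = 0.11). Icos (1.28 ± 0.19), Tnfrsf18 (0.88 ± 0.20) and Cd28 (0.71 ± 0.14) were also higher, with adjusted p of at most 0.0037. Tnfrsf9 was at 0.88 ± 0.33 (adjusted p = 0.089), and passed without 21-week-WT (adjusted p = 0.046), without the highest Scrublet scores (adjusted p = 0.022) and with total UMIs as the scaling (adjusted p = 0.029). Havcr2, Lag3, Pdcd1 and Tigit had too few UMIs to be tested.

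The genotypes were compared within each type between single libraries, as log2 ratios of CPM with exact 95% intervals that cover counting error only. A ratio was read where the 2 libraries held at least 20 UMIs together and the higher at least 10 CPM. At 12 weeks, 4 of 37 combinations of receptor and type were higher in DB by 2-fold or more and 1 was lower, against 2.81% and 2.21% of all gene and type combinations. With at most 5% mitochondrial UMIs, 1 was higher at 12 weeks. At 21 weeks, 8 of 39 were higher and none lower, against 5.25% and 5.31%. The medians were 0.27 and 0.45. Of the 34 combinations read at both ages, 20 were above 0 at both and 1 was below 0 at both, against 28.7% and 27.1% of all combinations read at both ages. Those higher by 2-fold or more at both were 2, Icos in NK cells and Pdcd1 in Foxp3+ T cells, against 0.39% of all combinations. The latter rested at 12 weeks on 17 and 4 UMIs (log2 ratio 1.31, interval -0.30 to 3.35) and was -0.87 when barcodes were thinned. The ages share no library.

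At 21 weeks Pdcd1 was higher in DB in γδ T cells, with 601 UMIs against 210 (log2 ratio 1.36, interval 1.13 to 1.60), and in ILC2, with 422 against 81 (1.02, 0.67 to 1.38). At 12 weeks the ratios were -0.40 (-0.77 to -0.03) in γδ T cells and 0.40 in ILC2. The share of γδ T barcodes with a Pdcd1 UMI was 21.4%, 15.4%, 13.8% and 26.6%, at median depths of 6684, 6212, 7327 and 5485 UMIs. Markers of cycling cells (Mki67 and Top2a) were at 281, 233, 224 and 32.9 CPM in the γδ T sums and at their lowest in 21-week-DB in each of the 6 types. Their part in these ratios was not tested.

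Icos was higher in DB in γδ T cells at both ages, by less than 2-fold, with log2 ratios of 0.80 (0.59 to 1.01) and 0.77 (0.65 to 0.89). In DETC its level was 44.3, 72.9, 87.4 and 223 CPM, and the ratio was 1.35 (0.77 to 1.98) at 21 weeks from 186 and 28 UMIs. Among Foxp3+ T cells at 21 weeks, Tigit had 25 UMIs in DB and 4 in WT (2.03, 0.50 to 4.02) and Pdcd1 had 22 and 6, with an interval that held 0. Ctla4 at 12 weeks was higher in DB in γδ T cells (88 and 30 UMIs, 1.25) and ILC2 (49 and 9 UMIs, 1.31), where 5 barcodes held 68.2% and 73.3% of the γδ T UMIs in DB and WT. Cd28 in DETC at 21 weeks had 32 and 3 UMIs (2.03), and its sign turned when barcodes were thinned.

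Tnfrsf9 in γδ T cells went in opposite directions at the 2 ages. It had 135, 23, 109 and 236 UMIs, or 49.9, 6.87, 16.6 and 32.4 CPM, in the same order of libraries. DB was below WT at 12 weeks (log2 ratio -2.86, -3.56 to -2.21) and above it at 21 weeks (0.96, 0.63 to 1.3). In 12-week-WT, 5 of 379 barcodes held 91 of the 135 UMIs, and 7.12% of barcodes were positive against 3.07%, 4.38% and 9.79% in the other 3 libraries.

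NK cells had higher Icos in DB at both ages, with log2 ratios of 1.34 (22 and 12 UMIs) and 1.61 (78 and 31 UMIs), and higher Cd28 at 21 weeks (1.3, 0.91 to 1.70). The make-up of the gated NK cells also differed. Eomes, a factor of conventional NK cells, was detected in 51.9%, 29.3%, 56.5% and 14.8% of NK barcodes and the cytotoxic gene Gzma in 47.2%, 28.0%, 73.4% and 13.6%. Il7r, which marks other innate lymphoid cells, was detected in 29.2%, 37.8%, 27.4% and 80.7%, while Ncr1 was detected in 63.6% to 68.3%. Irf8, listed as a marker of conventional type 1 dendritic cells, was at 401, 95.9, 871 and 79.2 CPM in the NK sums, where Xcr1 and Clec9a, which define those cells, had at most 1 UMI in any library. The part of these genes in the ratios was not tested. Within NK barcodes without Eomes, chosen after these values were seen, Icos was at 30.3, 53.3, 78.1 and 135 CPM and the 21-week ratio was 0.79 (0.12 to 1.50), and that of Cd28 was 1.28 (0.78 to 1.80).

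**Figure D3:**
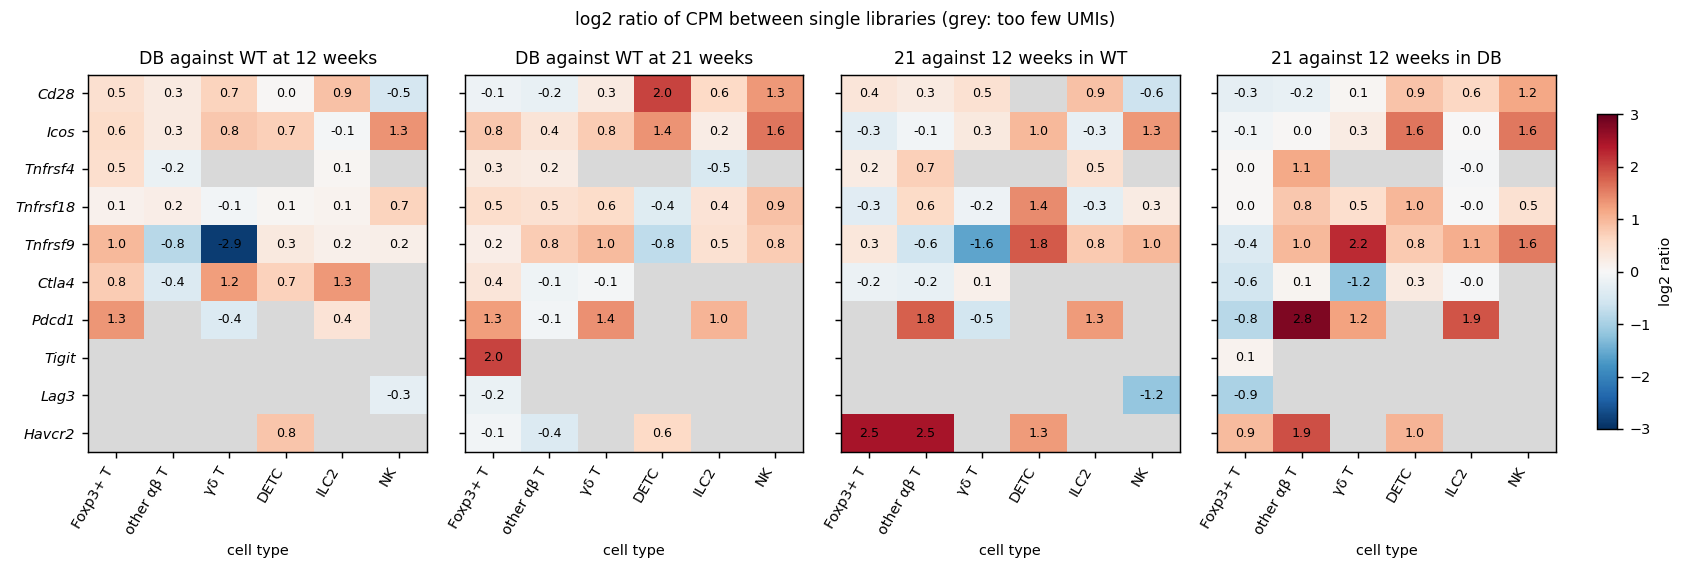
Log2 ratio of CPM for each receptor and cell type between single libraries (colour and printed value), with grey for combinations that had too few UMIs. Most readable ratios between DB and WT were above 0 at both ages, with the lowest value, -2.9, for Tnfrsf9 in γδ T cells at 12 weeks.

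The ages were compared the same way. They share the libraries of the genotype comparisons, and age cannot be told apart from the software version. In WT, 8 of 36 combinations were higher at 21 weeks by 2-fold or more and 2 were lower, against 2.3% and 4.43% of all gene and type combinations. In DB, 13 of 41 were higher and 1 was lower, against 3.56% and 7.97%. Both past 2-fold upward in WT and in DB were Pdcd1 in other αβ T cells and in ILC2, Havcr2 in other αβ T cells and in DETC, Tnfrsf18 in DETC and Icos in NK cells, 6 of 35 combinations read in both, against 0.26% of all combinations. In other αβ T cells Havcr2 was at 3.08, 3.39, 17.0 and 12.9 CPM (4, 8, 61 and 48 UMIs) and Pdcd1 at 5.40, 2.55, 18.7 and 17.7 CPM (7, 6, 67 and 66 UMIs). Both 21-week libraries were above both 12-week libraries for each gene. When barcodes were thinned, the ratio of Pdcd1 in WT fell from 1.79 to 0.47, below 2-fold. Havcr2 is also a macrophage transcript, and with the estimated background (3.41%, 3.02%, 2.82% and 2.12% of these sums) subtracted its ratios were 3.36 in WT and 2.23 in DB, against 2.46 and 1.92 before. That background estimate is limited by the C1q gate, as given above. Havcr2 in Foxp3+ T cells had 3, 14, 43 and 62 UMIs, a log2 ratio of 2.47 (0.83 to 4.80) in WT and 0.94 in DB.

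γδ T barcodes were split by the cytokine transcript Il17a, a split chosen after the Pdcd1 values were seen. Barcodes with Il17a (76, 58, 176 and 188) held 73.6, 104, 75.8 and 175 CPM of Pdcd1, and those without held 39.6, 24.6, 19.3 and 66.0 CPM. Icos was at 219, 458, 254 and 558 CPM with Il17a and at 72.1, 136, 89.9 and 155 CPM without. Both were higher with Il17a in 4 of 4 libraries, which is a description, with no test. Median depth was 7698 against 6437, 6450 against 6130, 7569 against 7242 and 5277 against 5509 UMIs. At 12 weeks the DB to WT ratio of Pdcd1 was 0.495 (-0.13 to 1.12) with Il17a and -0.68 (-1.16 to -0.21) without. At 21 weeks it was 1.21 (0.86 to 1.56) with Il17a and 1.77 (1.45 to 2.10) without.

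**Figure D4:**
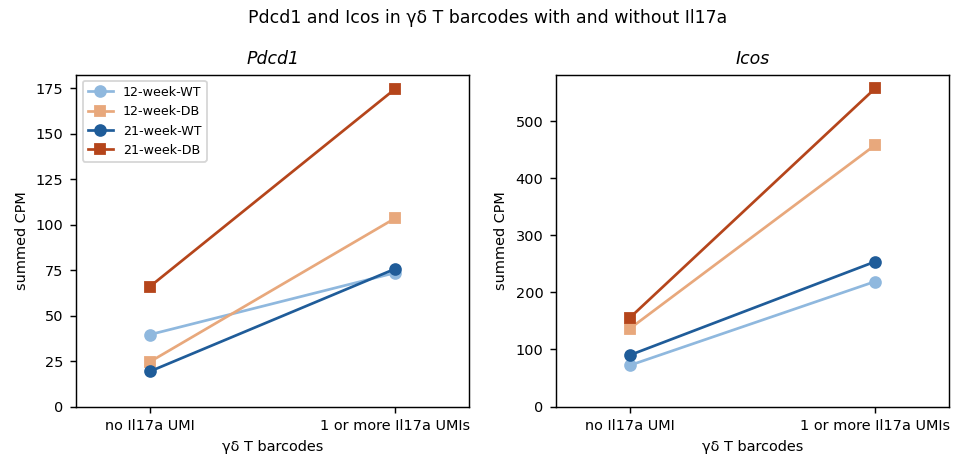
Summed CPM of Pdcd1 and Icos in γδ T barcodes without and with an Il17a UMI, with 1 line per library. All 8 lines rise from left to right, and 21-week-DB is the highest library for Pdcd1 on both sides.

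Foxp3+ barcodes made up 23.0% (17.8 to 28.9), 22.6% (18.8 to 26.7), 19.0% (16.0 to 22.2) and 28.4% (25.2 to 31.7) of αβ T barcodes. The intervals cover counting of barcodes only.

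The other lists of T cell genes were read in the same fits, and Foxp3 and Il1rl1, which entered the gates, were left out of the counts. Over all genes tested, 4.79% were higher and 5.27% lower in Foxp3+ than in other αβ T cells, and 7.74% and 8.23% in γδ T cells. Regulatory T cell genes were higher in Foxp3+ than in other αβ T cells for 6 of 9 tested and lower for none, with a median log2 fold change of 1.56, led by Ikzf4 (2.98), a partner of Foxp3. Of 15 other co-receptors 5 were higher and 4 lower, where the MHC-binding receptor Cd160 had 0 UMIs in Foxp3+ T cells against 63, at least 5.47-fold lower taking 3 counts over the group. Of 13 transcription factors 6 were higher and 2 lower, led by Tcf7 (-2.99), a factor of naive and memory T cells. Of 16 proximal signalling genes 3 were higher and 2 lower. In γδ T cells 9 of 15 other co-receptors were lower than in other αβ T cells and 1 higher, led by Cd40lg (-5.11) and Cd5 (-4.32), and of 9 regulatory genes 1 was higher and 5 lower, led by Lrrc32 (-4.36). Signalling genes were 2 higher and 5 lower of 16 there, and transcription factors 2 and 5 of 13.

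Shares over all genes tested were 26.4% higher and 26.8% lower in DETC, 8.35% and 8.25% in ILC2, 10.8% and 10.1% in NK cells, and 4.45% and 6.34% in Cd4+ barcodes. In DETC against γδ T cells, 6 of 15 other co-receptors were higher and 4 lower, the latter near that share, led by Cd244a (6.88) and Cd160 (4.84). There 8 of 16 signalling genes were higher and 1 lower, led by Traf5 (4.33), an adaptor of tumour necrosis factor receptors. Regulatory genes were 1 higher and 2 lower of 9, and transcription factors 2 and 5 of 13. ILC2 had 10 of 15 other co-receptors lower than other αβ T cells and 1 higher, led by Cd40lg (-7.51), Cd5 (-5.93) and Slamf1 (-4.24), with 2 signalling genes higher and 9 lower of 16. Regulatory genes were 3 higher and 6 lower of 9 in ILC2, and transcription factors 3 and 6 of 13. NK cells had 4 other co-receptors higher and 7 lower. They held no UMI of Cd40lg, Cd5 or Tox2, at least 138-fold, 89.1-fold and 8.72-fold lower. In NK cells 3 signalling genes were higher and 4 lower of 16, regulatory genes 1 and 5 of 9, and transcription factors 3 and 4 of 13. In Cd4+ against Cd8+ barcodes the regulatory genes were 4 higher and none lower of 6, led by Il10 (3.47), and of 12 transcription factors 3 were higher and 3 lower, led by Lef1 (-2.10) and Irf4 (1.66). Other co-receptors were 5 higher and 1 lower of 11 there, and 3 of 14 signalling genes were lower with none higher.

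The 13 ligand genes were read in the 6 lymphoid types and in 4 other gated types. Cd86, a ligand of CD28 and CTLA-4, averaged 132 CPM in B cells, 110 in dendritic cells and 69.4 in macrophages, and at most 10.4 in the 6 lymphoid types. Cd80 averaged 25.7 CPM in dendritic cells and 31.6 in Foxp3+ T cells, where it was higher than in other αβ T cells (log2 fold change 2.96, adjusted p = 3.7e-07), the only 1 of 10 ligands tested that was. Tnfsf9, the ligand of 4-1BB, averaged 250 CPM in dendritic cells and 124 in ILC2. Icosl averaged 68.0 CPM in B cells, 64.3 in dendritic cells and 32.0 in NK cells. Cd274, which encodes PD-L1, was widespread, at 79.7 CPM in NK cells, 78.2 in mast cells and 10.6 in macrophages, and in dendritic cells it was at 22.0, 19.2, 16.3 and 51.3 CPM, highest in 21-week-DB. Pdcd1lg2 averaged 49.7 CPM in NK cells, and Pvr, a ligand of TIGIT, 69.5 in dendritic cells. The galectin genes Lgals3 and Lgals9 were read in every type, with means of 215 to 1810 and 29.1 to 150.1 CPM. Tnfsf4, Tnfsf18, Nectin2 and Fgl1 averaged at most 9.58 CPM anywhere. Across the other comparisons of types, ligands were 5 lower and none higher of 10 in γδ T cells, 2 higher and 1 lower in DETC, 3 and 3 in ILC2, 3 and 1 in NK cells, and none of 5 differed between Cd4+ and Cd8+ barcodes. These counts stand beside the same shares over all genes given above for each comparison.

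**Figure D5:**
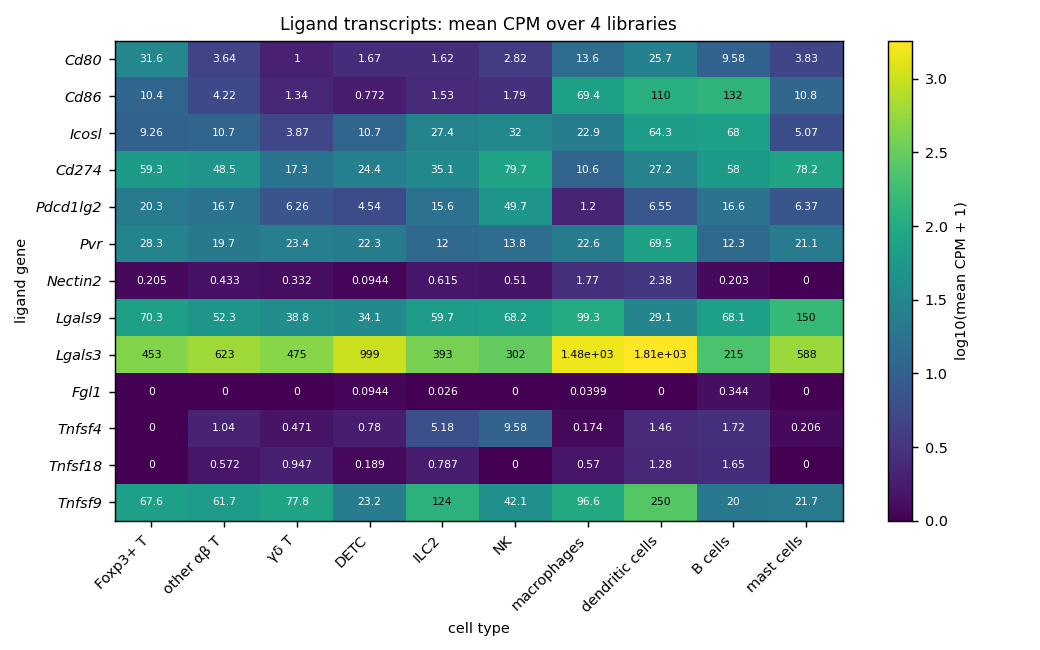
Mean CPM over 4 libraries of 13 ligand genes (colour on a log10 scale, value printed) in 6 lymphoid types and 4 other gated cell types. Cd86, Icosl, Pvr and Tnfsf9 are high in dendritic cells, and Fgl1, Nectin2, Tnfsf4 and Tnfsf18 are low in every column.

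The genes whose levels followed each receptor most closely were taken from 11714 genes with at least 100 UMIs, by Pearson's r of log2(CPM + 1) over the 24 sums, which share 4 libraries and their depths. Ctla4 was most like Izumo1r (0.96), Il10 (0.95) and A630023P12Rik (0.95), and Tnfrsf4 like Hif1a (0.94), Syt11 (0.93) and Tox2 (0.92). Icos was closest to Fam169b (0.94), Neb (0.88) and Ptger2 (0.87), and Cd28 to Lef1 (0.88), Ubash3a (0.87) and Ms4a6b (0.86). Pdcd1 was closest to Gadd45b (0.88), G430095P16Rik (0.88) and Spock2 (0.87). Tnfrsf18 was closest to Tent5a (0.89), Ets2 (0.87) and Arid5b (0.84), and Tnfrsf9 to Trp53inp1 (0.85), Bmp2k (0.83) and Trpc1 (0.82). Havcr2 followed Mbd2 (0.86), Trp53inp1 (0.86) and Rb1cc1 (0.83). For the sparse genes the values were 0.88, 0.85 and 0.84 for Faim, Ccr3 and P4ha1 with Tigit, and 0.81, 0.80 and 0.78 for Entpd1, Gm47664 and Pglyrp1 with Lag3.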

How the data were processed

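CD45+ hindpaw leukocytes of 4 conditions were measured as 1 pooled library each. Part of the strain name of the DB mice is not reported here. The authors used Cell Ranger and the mm10 genome, and the deposited values are UMI counts that were not normalized. Of 5998, 7463, 8208 and 9124 barcodes, 5271, 6552, 7270 and 8707 were kept. Their median depth was 7390, 7194, 8001 and 5355 UMIs. The lymphoid gates left out barcodes with C1q, MHC class II, mast cell, B cell or neutrophil transcripts above set numbers. Doublets were kept in the main results and removed by Scrublet score (scanpy 1.11.5) in an alternative. Counts were summed per library and type and tested with edgeR 4.0.16 in R 4.3.3 (filterByExpr, TMM factors and the quasi-likelihood test, blocked by library, with Benjamini-Hochberg adjusted p over all genes). The 6 types of a library come from the same pooled mice, which is the source of the pairing. All 24 sums entered 1 fit, and the 8 Cd4+ and Cd8+ sums another. The fits were tested on simulated counts. Between conditions no test was made. Shares have Clopper-Pearson and CPM exact Poisson intervals at 95%, and a count of 0 allows 3. Named genes were the 10 receptors, the 3 list genes with the largest called differences over the lists together in each comparison, leaving out gate genes, and the 3 genes most like each receptor. The members and lists were chosen with earlier results of these data known. Gate thresholds were set with the data in view. Alternatives were other filters, gates, scalings, DESeq2 1.42.0, thinning, background subtraction, no block, only the 2 types compared in the fit, and each library left out. Leaving out barcodes shared between libraries was added after seeing the data.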

Additional observations from a re-analysis of the deposited data

Results flagged for a closer look

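Of the 34 combinations of receptor and type read at both ages, 5 had DB on opposite sides of WT at the 2 ages, with both counting intervals away from 0. The share of all genes that met this rule was not counted. Of all gene and type combinations read at both ages, 28.7% were above 0 at both and 27.1% below 0 at both. The rest lay on opposite sides or at 0, so opposite signs alone were common. The difference between the ages was not tested, since each condition was 1 library. Tnfrsf9 in γδ T cells had log2 ratios of -2.86 and 0.96. Tnfrsf9 in other αβ T cells had -0.83 and 0.75, from 50 and 49 UMIs at 12 weeks and 156 and 89 at 21 weeks. At 12 weeks, 5 barcodes held 35 of the 50 UMIs in DB and 5 held 33 of the 49 in WT. The counting interval does not cover this spread between barcodes. Pdcd1 in γδ T cells had -0.40 and 1.36. Its 12-week ratio was -0.68 (-1.16 to -0.21) among γδ T barcodes without Il17a. Among those with Il17a it was 0.495 (-0.13 to 1.12), on the same side as at 21 weeks. Split instead by the γδ T cell receptor gene Tcrg-V6, it was -1.355 (-2.22 to -0.53) with Tcrg-V6 and -0.11 (-0.54 to 0.31) without. Cd28 in NK cells had -0.50 and 1.3, beside the Eomes and Il7r shares given above, whose part was not tested. In splits chosen after these values were seen, its 12-week ratio was -0.18 (-0.72 to 0.35) without Eomes and -2.03 (-3.53 to -0.82) with Eomes. It was 0.13 (-0.47 to 0.72) with Il7r and -1.715 (-2.655 to -0.88) without Il7r. The interval thus held 0 among NK barcodes without Eomes and among those with Il7r. Cd28 in other αβ T cells had 0.26 and -0.23, both within 2-fold.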

How the results depend on the processing

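Of 39 receptor calls between types, 13 were lost under at least 1 alternative, with 606 values that kept the call and 36 that did not, and none of them changed sign. Of the 17 receptor results that were not called, 11 passed under at least 1 alternative, in 25 values. Sign changes were limited to values that were not called or rested on few UMIs: Pdcd1 in Foxp3+ against other αβ T cells (-0.21 when thinned, -0.50 without 12-week-DB, and -0.50 to 0.90 over the libraries left out), DETC against γδ T cells for Icos (0.054) and Tnfrsf4 (0.18) with stricter gates and for Tnfrsf4 without 21-week-DB (0.071, and -0.83 to 0.071 over the libraries left out), the DB to WT ratios of Pdcd1 in Foxp3+ T cells at 12 weeks (-0.87) and Cd28 in DETC at 21 weeks (-0.70) when thinned, and the age ratio of Lag3 in NK cells of WT with stricter gates (0.0063).

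Counts of genes past the threshold also moved, and the cause was not tested except that thinning, stricter gates and leaving out a library use fewer UMIs or sums by construction. Without the replicate block (the library term) the counts higher and lower were 234 and 241 for Foxp3+ against other αβ T cells, 347 and 415 for γδ T cells, 419 and 363 for ILC2, 742 and 618 for NK cells, and 87 and 96 for Cd4+ against Cd8+ barcodes. Without it calls were lost for Lag3 (Foxp3+ T cells and ILC2), Havcr2 (γδ T cells and ILC2), Tigit (γδ T cells), Pdcd1 (NK cells), and Tnfrsf18 and Cd28 (Cd4+ barcodes), with adjusted p from 0.055 to 0.62. Thinning gave 283 and 346 for Foxp3+ T cells, 521 higher for γδ T cells, 1892 lower for DETC, 520 and 566 for ILC2, 622 and 557 for NK cells, and 153 and 180 for Cd4+ barcodes. The gate by Foxp3, or Ikzf2 with Il2ra, gave 284 and 328. Total UMIs as scaling gave 813 higher for Foxp3+ T cells and 578 and 249 for Cd4+ barcodes, and no filter on low genes gave 846 lower for Foxp3+ T cells. For Cd4+ barcodes DESeq2 gave 124 and 233 and stricter gates 173 and 233. Leaving out 1 library gave 283 to 421 higher and 345 to 469 lower for Foxp3+ T cells, 535 to 732 and 551 to 789 for γδ T cells, 2156 to 2706 and 1941 to 2722 for DETC, 584 to 822 and 524 to 801 for ILC2, 861 to 1103 and 712 to 879 for NK cells, 205 to 298 and 297 to 401 for Cd4+ barcodes, and 91 to 98 of 150 receptor and pair combinations.

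At most 5% mitochondrial UMIs left 1 combination higher in DB at 12 weeks, 1 lower in DB at 21 weeks, and 1 and 0 lower at 21 weeks in WT and in DB. Stricter gates gave 2 lower in DB at 12 weeks, and 1 and 2 lower with age. Thinning gave 2 lower in DB at 12 weeks, 5 higher with age in WT and 0 lower in DB, and TMM factors 0 lower in DB. Ctla4 shares in Foxp3+ T cells fell when thinned to 51.9%, 69.7%, 59.5% and 67.3%, and with at least 2 UMIs to 69.6%, 61.8% and 64.8% in the last 3 libraries. Small types and sparse genes limit precision: Tigit and Lag3 had 123 and 145 UMIs in all.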
